A study of Mus musculus with 65 samples.

Results

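Cytosolic ribosomal proteins were followed in 65 single mouse cells as 67 genes of the 10407 genes in the deposited tables. A gene belonged to the set when its symbol began with Rpl or Rps followed by a number, or was Rpsa or one of the stalk genes Rplp0, Rplp1 and Rplp2; symbols marked as pseudogenes (-ps) and the Rps6k kinases were left out. The 67 genes were 32 large subunit genes, 23 small subunit genes, 3 stalk genes, 8 paralogs or retrocopies (Rps4l, Rps3a3, Rps27l, Rps27rt, Rpl22l1, Rpl36al, Rpl37rt and Rpl7l1) and Rps19bp1, which has a matching name but encodes a protein that binds Rps19. In the GENCODE vM21 annotation 64 of them are protein-coding, and Rps3a3, Rps4l and Rpl37rt are processed pseudogenes. The set is incomplete: core genes such as Rpl3, Rpl5, Rpl11 and Rps6 are not among the genes of the deposited tables.

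The cells were neuronal progenitors of CD1 mice, profiled one by one by Patch-seq, in which a cell's content is drawn into a recording pipette. They formed 3 groups. The transplanted group held 19 progenitors of embryonic day 15 (E15) placed in a host brain of embryonic day 12 (E12); its genotype field reads only Transplanted, and no time after transplantation is given. The E15 group held 26 cells and the E12 group 20 cells, both labelled WT and Flash Tag, a dye that marks cells dividing at the ventricular surface. Since no label ties a cell to an animal, a group stands as 1 sample: values and ratios are descriptions, without tests. Levels are CPM, the reads of a gene per 1000000 reads of all table genes, for the summed reads of a group unless a value per cell is given. Ratios are log2 values with 1 CPM added. Intervals are exact 95% limits for counting error only, since the kit has no molecular identifiers.

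The ribosome joins a small subunit, which reads the messenger RNA, to a large subunit, which forms the peptide bond, and the stalk recruits the translation factors. Each subunit needs a single copy of nearly every protein, so the genes of the set are usually expressed in step. Their messenger RNAs start with a pyrimidine stretch, the 5′ TOP motif, through which mTORC1 and Larp1 control their translation. Fast-growing neural progenitors hold many ribosomes, and ribosomal protein genes have spawned a large number of retrocopies (processed pseudogenes), which makes their reads hard to place.

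How alike a gene and its retrocopy can be is shown by the pairs on which part of the results turns. The stretches of 60 bases with the most differences between Rps3a1 and its retrocopy Rps3a3, and between Rps4x and its retrocopy Rps4l, come from the GENCODE vM21 transcripts, with bases that differ within the pair in capitals.
Rps3a1: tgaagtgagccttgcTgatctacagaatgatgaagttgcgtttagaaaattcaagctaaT
Rps3a3: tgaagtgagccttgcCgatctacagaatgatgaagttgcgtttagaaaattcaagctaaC
Rps4x: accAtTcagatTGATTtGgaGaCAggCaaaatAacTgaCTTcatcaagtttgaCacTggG
Rps4l: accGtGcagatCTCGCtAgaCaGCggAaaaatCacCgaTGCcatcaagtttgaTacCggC
Over 795 aligned bases Rps3a1 and Rps3a3 differed at 9, an identity of 98.9%. Rps4x and Rps4l differed at 161 of 789 bases, an identity of 79.6%. Rps3a3 lies at chr13:108670603-108671397 on the plus strand (GRCm38) without introns, and its parent Rps3a1 at chr3:86137940-86142702 on the minus strand. Rps4l lies at chr6:148354656-148355598 on the plus strand, and its parent Rps4x at chrX:102184941-102189394 on the minus strand.

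The libraries differed in depth and in makeup. The median library had 166134 reads among transplanted cells (22358 to 3622411), 998630 among E15 cells (11449 to 4560871) and 148824 among E12 cells (10928 to 1635767). Reads of more than 8000 genes were found in 5 transplanted and 11 E15 libraries and in 0 of the E12 libraries; these are called many-gene libraries. The 8 microglia and macrophage markers summed to 781 CPM in transplanted, 2330 in E15 and 71.0 in E12 cells, the 7 ventral telencephalon and interneuron markers to 1661, 2163 and 204 CPM, and the 5 erythroid markers to 15773, 2636 and 2958 CPM. Per cell the erythroid sum ran from 25.2 to 64865 CPM in transplanted, from 5.07 to 57643 in E15 and from 322 to 21298 in E12 cells. The 6 neuron markers summed to 3447 CPM in transplanted, 3896 in E15 and 805 in E12 cells, with medians per cell of 4466 and 4219 CPM in the transplanted and E15 many-gene libraries. The 8 apical progenitor markers, which define the labelled cell type, summed to 4738, 4398 and 5676 CPM, and to 9986, 12184 and 5676 CPM without the many-gene libraries. Of these 8, 6 were lower in E15 than in E12 cells, Pax6 at 289 against 1681 CPM among them, while Fabp7 was at 2611 against 1021 CPM. The part of these other cell types in the results was not tested. Many-gene libraries supplied most of the summed reads of the transplanted and E15 groups. Their median depth was 1188679 against 74696 reads in the other transplanted cells, and 1956237 against 378963 reads in the other E15 cells. Their apical progenitor markers had medians per cell of 1859 against 4372 CPM in transplanted and 1453 against 13381 CPM in E15 cells. E15 replicates 4, 5 and 7 stood apart as the only 3 of 2080 pairs of libraries with a correlation of log10 CPM above 0.9 (0.925, 0.920 and 0.901; the next highest was 0.885). They were also the 3 deepest libraries, with 3832671, 4096356 and 4560871 reads, and the part of depth in their likeness was not tested. The mean chi-square per gene between any pair of libraries was at least 4.62, where counting noise alone gives 1, so all were counted separately; reads without molecular identifiers cannot show whether alike libraries share a source.

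The set took about the same small share of the reads in all 3 groups. This is the share of the genes present in the deposited tables, not of all cytosolic ribosomal protein genes. Ribosomal protein genes held 1.497% to 4.64% of the reads of a transplanted cell (median 1.86%), 1.27% to 3.30% of an E15 cell (median 1.87%) and 1.18% to 2.79% of an E12 cell (median 2.08%). The 3 groups overlapped over most of their range, and the medians differed by less than the spread between cells. The highest share was that of transplanted replicate 14, followed by E15 replicate 6 and transplanted replicate 3 at 3.12%. E15 replicate 6 also had 25596 CPM of erythroid markers, while transplanted replicate 14 had 147. With the reads of a group added up the share was 2.18% in transplanted, 1.86% in E15 and 1.88% in E12 cells. After leaving out the many-gene libraries these sums gave 1.68%, 2.09% and 1.88%, so the order of the first 2 groups turned round.

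**Figure D1:**
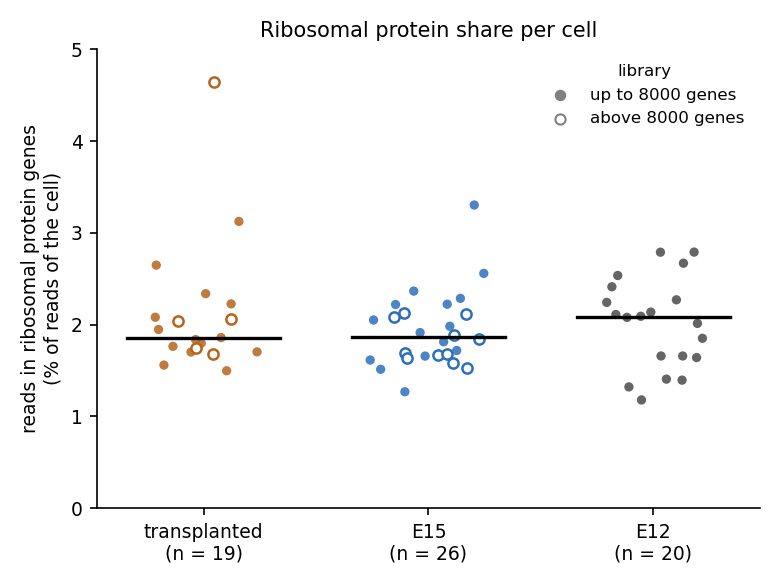
Share of a cell's reads in the 67 ribosomal protein genes, in percent, for transplanted, E15 and E12 cells; each point is a cell, open points are libraries with reads of more than 8000 genes, and bars are medians. The medians are 1.86%, 1.87% and 2.08%, and transplanted replicate 14 stands highest at 4.64%.

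Over the 65 cells the rank correlation of the ribosomal share was 0.43 with the summed level of the 74 mitochondrial ribosomal proteins. It was 0.40 with that of the 9 genes of the elongation factor list. It was -0.34 with the number of reads and -0.28 with the number of genes detected. Within the transplanted, E15 and E12 groups it was 0.41, 0.39 and 0.53 with the mitochondrial ribosomal proteins and 0.40, 0.12 and 0.60 with the elongation factors. In E15 cells it was 0.51 with the erythroid sum, against -0.11 in transplanted and -0.08 in E12 cells. These correlations are descriptions over cells that share library preparation, pool and depth.

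As medians, single members varied less from cell to cell than all genes above the same floor, without a closer match in level. Among genes at 200 CPM or more, the median coefficient of variation over cells was 0.641 for 29 members against 0.832 for 1078 genes in transplanted cells. It was 0.499 for 26 members against 0.716 for 1063 genes in E15 cells, and 0.598 for 27 members against 1.07 for 1210 genes in E12 cells. Without the many-gene libraries these medians were 0.658 against 0.949 in transplanted and 0.613 against 0.939 in E15 cells. The steadiest member was Rplp0 in transplanted cells (0.388), Rpl37a in E15 cells (0.336) and Rps9 in E12 cells (0.376).

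The comparison of E15 with E12 cells asks how cells labelled as progenitors differ between these ages. The summed E15 reads come mostly from many-gene libraries, which the E12 group lacks. Age and library makeup therefore cannot be told apart in these sums. As a set the ribosomal protein genes differed little: the median log2 ratio of the 66 members at 5 CPM or more in either group was 0.06, with quartiles of -0.14 and 0.32, and the median of all genes was -0.03. Of these members 47 (71.2%) lay within 0.5 of a log2 ratio of 0, against 31.5% of the 10193 genes at that level. Among the genes at 200 CPM or more in both groups, 24 of 26 members (92.3%) and 65.7% of 825 genes lay within that distance. Higher by 2-fold or more were 9 members, where the background, the share of all genes tested, was 25.3%. Lower by 2-fold or more were 3 members, with a background of 20.3%. Leaving out the many-gene libraries, 11 were higher (background 24.2%) and 2 lower (background 21.6%), and the median was 0.25.

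Members of high level show this narrow band. Rps9, a small subunit protein, was at 1052 CPM in E15 and 837 CPM in E12 cells. Rpl32, of the large subunit, was at 1367 and 1494 CPM, and Rps3, which lies at the entry of the messenger RNA channel, at 1359 and 1320 CPM. Rpl4 was at 1270 and 1368 CPM, and Rps14 at 1337 and 1157 CPM. The stalk genes Rplp0, Rplp1 and Rplp2 were at 600.1, 150 and 420 CPM in E15 and at 662, 177 and 355 CPM in E12 cells, with log2 ratios of -0.14, -0.24 and 0.24. The medians of large and small subunit genes were both 0.06.

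**Figure D2:**
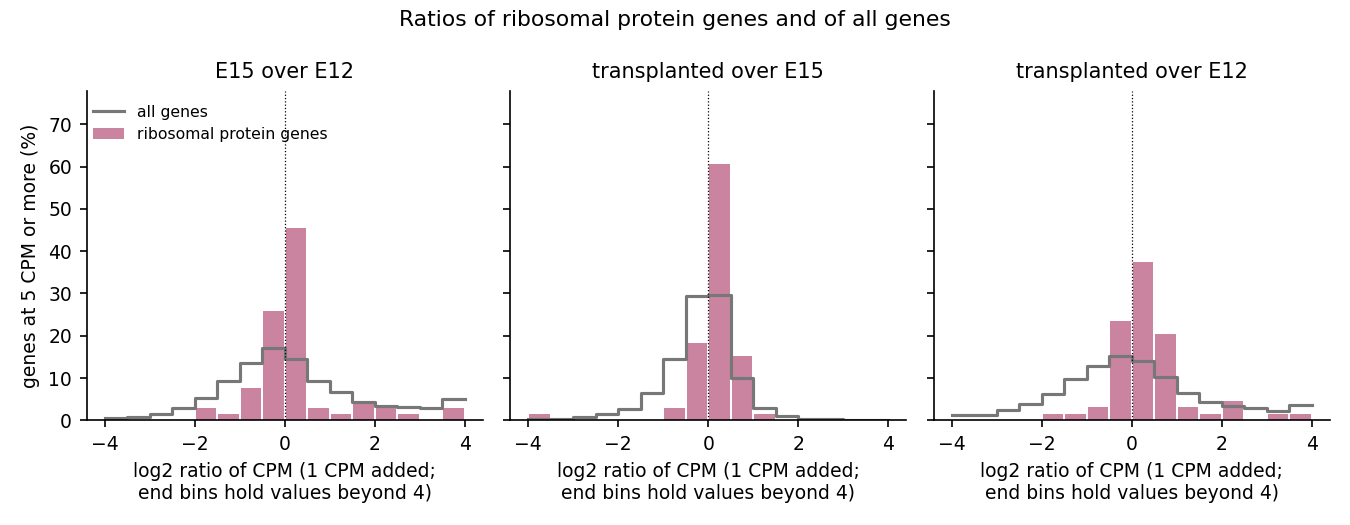
Distribution of log2 ratios of summed CPM in bins of 0.5, for ribosomal protein genes (bars) and for all genes (line) at 5 CPM or more in either group, as a percentage of the genes; the panels show E15 over E12, transplanted over E15 and transplanted over E12. The ribosomal protein genes gather near 0, with 71.2%, 78.8% and 60.9% of members within 0.5 of 0 against 31.5%, 59% and 29.3% of all genes. At 200 CPM or more in both groups these shares are 92.3%, 92% and 76.9% against 65.7%, 92.4% and 60%.

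Outside the band among members at 200 CPM or more in both groups were Rps19 and Rps27l. Rps19, a protein of the small subunit head that is mutated in Diamond-Blackfan anaemia (chr7:24884371-24889806, plus strand, GRCm38), was at 283 CPM in E15 cells (278 to 289) and at 907 CPM in E12 cells (880 to 934), a log2 ratio of -1.67. Per cell it was at 14.6 to 1135 CPM in E15 cells, with a median of 373, and at 14.1 to 1977 CPM in E12 cells, with a median of 990. Every cell of both groups had a read of it. The groups overlapped, with 4 E15 cells (replicates 4, 5, 7 and 18) and 1 E12 cell (replicate 13) under 20 CPM. Outside these cells the levels ran from 165 to 1135 CPM at E15 and from 362 to 1977 CPM at E12.

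The direction of Rps19 held in each pool. In all 8 pools with cells of both groups its level was lower in E15 than in E12 cells, with log2 ratios of -3.63 to -0.42. It was -1.86 to -1.49 when single cells were left out, -1.28 without the many-gene libraries and -1.12 without E15 replicates 4, 5 and 7, where the E15 level was 417 CPM. In transplanted cells Rps19 was at 798 CPM (783 to 814), with 251 to 2083 CPM per cell and a median of 730. All 19 transplanted cells were above 20 CPM. Against E15 cells the log2 ratio was 1.49, higher in 7 of 7 pools (0.55 to 3.44), 1.12 without transplanted replicate 14 and 0.94 without E15 replicates 4, 5 and 7. Without the many-gene libraries it was 0.57, below 2-fold. Against E12 cells it was -0.18. Of the 50-base words in the last 400 bases of the Rps19 transcripts 60.4% occurred in no other annotated gene, and 15 pseudogenes shared the rest. Its binding partner Rps19bp1 was at 223 CPM in transplanted, 173 in E15 and 97.1 in E12 cells.

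**Figure D3:**
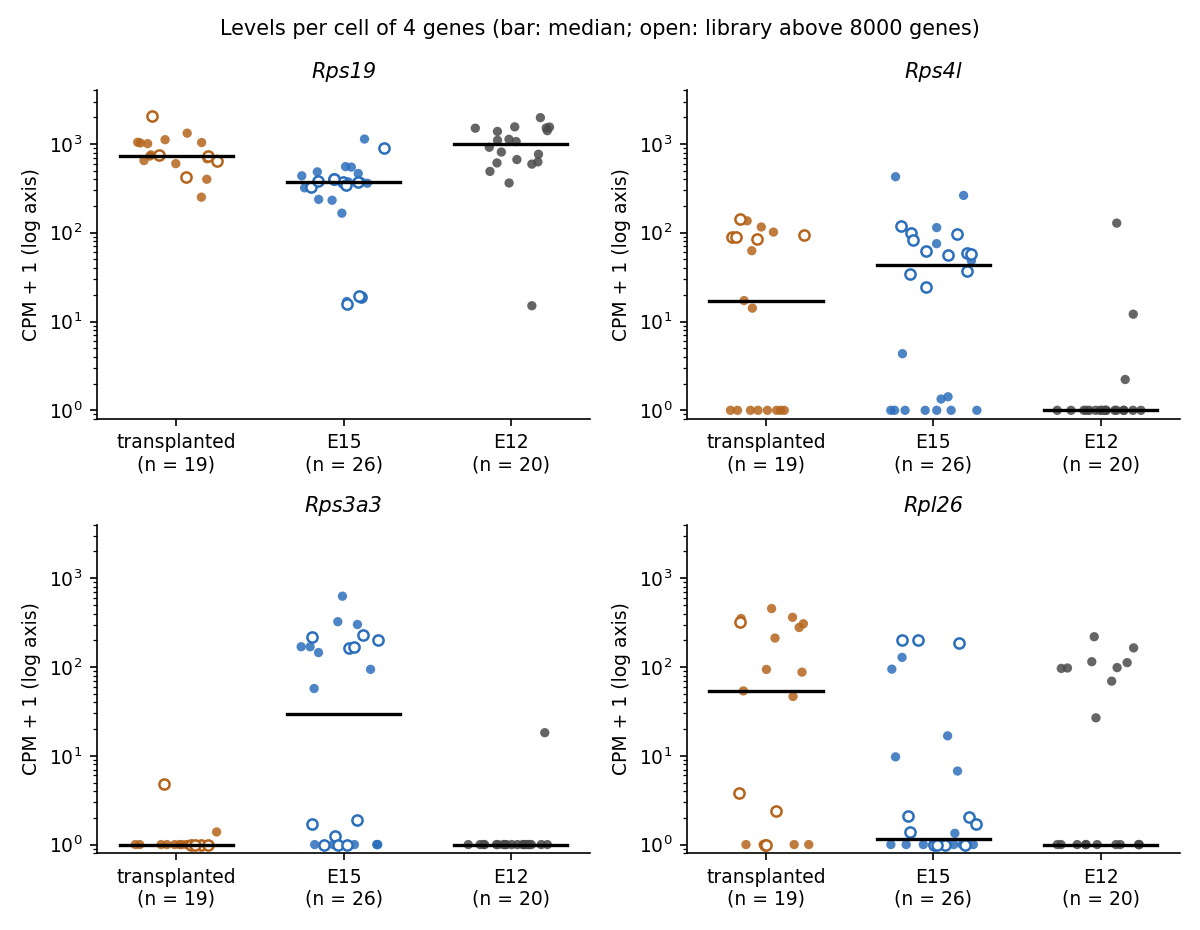
Levels per cell of Rps19, Rps4l, Rps3a3 and Rpl26 in transplanted, E15 and E12 cells, as CPM plus 1 on a log axis; bars are medians and open points are libraries with reads of more than 8000 genes. Rps19 has medians of 730, 373 and 990 CPM, Rps4l is at 0 in 17 of 20 E12 cells, Rps3a3 is above 20 CPM in E15 cells only, and Rpl26 has cells at 0 and cells above 20 CPM in every group.

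Rps4l, the retrocopy of Rps4x, was read in both groups of E15 origin and hardly in E12 cells. It had 975 reads in transplanted, 2419 in E15 and 6 in E12 cells, which are 76.7 CPM (71.9 to 81.6), 64.5 CPM (62.0 to 67.2) and 1.21 CPM (0.446 to 2.64). Per cell it was at 0 to 141 CPM in transplanted cells (median 16.2), at 0 to 426 CPM in E15 cells (median 41.9) and at 0 to 127 CPM in E12 cells (median 0). A read was found in 11 of 19 transplanted, 19 of 26 E15 and 3 of 20 E12 cells. The CPM ratio was 53.2 for E15 over E12 cells (24.4 to 145) and 63.2 for transplanted over E12 cells (28.9 to 172.5). The log2 ratio of E15 to E12 cells was 4.89, 4.72 without the many-gene libraries, and above 0 in 7 of 8 pools (-0.09 to 7.12). For transplanted over E12 cells it was 5.13, 4.04 without the many-gene libraries, and above 0 in 6 of 7 pools (-0.90 to 6.91). Without the many-gene libraries a read was found in 6 of 14 transplanted and 8 of 15 E15 cells, and 1 library held most of the reads: transplanted replicate 18 had 115 of 164 and E15 replicate 19 had 372 of 631. Without these 2 libraries as well, Rps4l was at 12.9 CPM in transplanted and 25.5 CPM in E15 cells, with log2 ratios of 2.65 and 3.58 to E12 cells. With every cell given the same weight the log2 ratio was 3.01 for E15 over E12 and 2.66 for transplanted over E12 cells, and as differences of the deposited values 0.64 and 0.54.

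The 1 E12 cell above 20 CPM, replicate 15 at 127 CPM, had 15698 reads in all, 2 of them of Rps4l. At 0, an E12 library still allowed 4.83 to 274.5 CPM, counted as 3 reads of its total. The deepest E12 cell held 33.1% of the reads behind the E12 sum. The parent Rps4x was at 10.1 CPM in transplanted, 7.74 in E15 and 10.7 in E12 cells. In the last 400 bases 90.2% of the 50-base words of Rps4l and 28.8% of those of Rps4x occurred in no other gene.

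Rps3a3, the near-identical retrocopy of Rps3a1, was read mostly in E15 cells. It had 7 reads in transplanted, 3156 in E15 and 3 in E12 cells, or 0.551 CPM (0.221 to 1.13), 84.2 CPM (81.3 to 87.2) and 0.607 CPM (0.125 to 1.77). The CPM ratio was 139 for E15 over E12 cells (47.4 to 673), and E15 cells exceeded transplanted cells 153 times (74.2 to 381). Per cell it was at 0 to 3.82 CPM in transplanted cells (median 0), at 0 to 626 CPM in E15 cells (median 28.6) and at 0 to 17.2 CPM in E12 cells (median 0).

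Within the E15 group Rps3a3 was at 56.3 to 626 CPM in 13 cells, above 0 but at most 0.877 CPM in 3 cells, and at 0 in 10 cells. The cells at or near 0 included deep libraries: replicate 4 had 0.261, replicate 7 had 0.877 and replicate 25 had 0.699 CPM, and the level that a count of 0 still allowed ran from 0.732 to 262 CPM over the cells at 0. Replicate 5 had no read of it, nor had replicates 6, 15 and 20. In pools G and H no cell of any group had a read, and E15 cells were higher in the other 6 of 8 pools. The parent Rps3a1 was at 205 CPM in transplanted, 137 in E15 and 108 in E12 cells, and was read in all but 3 E15 and 2 E12 cells. The sum of Rps3a1 and Rps3a3 had a median per cell of 179, 192 and 126 CPM. Of the Rps3a3 50-base words 47.3% were found in no other gene. Whether reads of Rps3a1 were counted for Rps3a3 was not tested.

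Rpl26 is a large subunit protein that also binds p53 messenger RNA (chr11:68901583-68906989, plus strand, GRCm38). In every group it was likewise read at high levels in some cells and at or near 0 in others. It was at 105.5 CPM in transplanted, 76.1 in E15 and 72.6 in E12 cells. Per cell it was at 0 to 454 CPM in transplanted (median 52.8), at 0 to 202 CPM in E15 (median 0.170) and at 0 to 218 CPM in E12 cells (median 0). It stood at 45.5 CPM or more in 11 of 19 transplanted cells, at 93.6 CPM or more in 5 of 26 E15 cells and at 25.8 CPM or more in 9 of 20 E12 cells. The 5 E15 cells were replicates 2, 4, 5, 6 and 7. Without replicates 4, 5 and 7 the E15 level was 16.8 CPM, and the log2 ratio of E15 to E12 cells was -2.05, against 0.07 over all cells.

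In the 11 many-gene E15 libraries, which had 408562 to 4560871 reads, most members were held within narrow limits. Among the 51 members with a mean of 20 CPM or more over these libraries, the median log2 range from lowest to highest library was 1.04, against 2.10 for 6583 genes. The genes share this floor but were not matched to the members in level, and counting error widens the ranges of low genes most. A range of at most 1.5 was found for 37 members (72.5%) and for 28.2% of genes. Rps9 ran from 967 to 1315 CPM (range 0.44), Rpl32 from 1160 to 1689 CPM (0.54) and Rpl37 from 282 to 446 CPM (0.66). A range of 4 or more was found for 4 of the 51 members (7.84%) and for 20% of genes above the same floor. They were Rps19 (5.84), Rpl26 (7.66), Rps3a3 (7.83) and Rpl35a (5.26), a large subunit protein at 2.05 to 116 CPM.

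**Figure D4:**
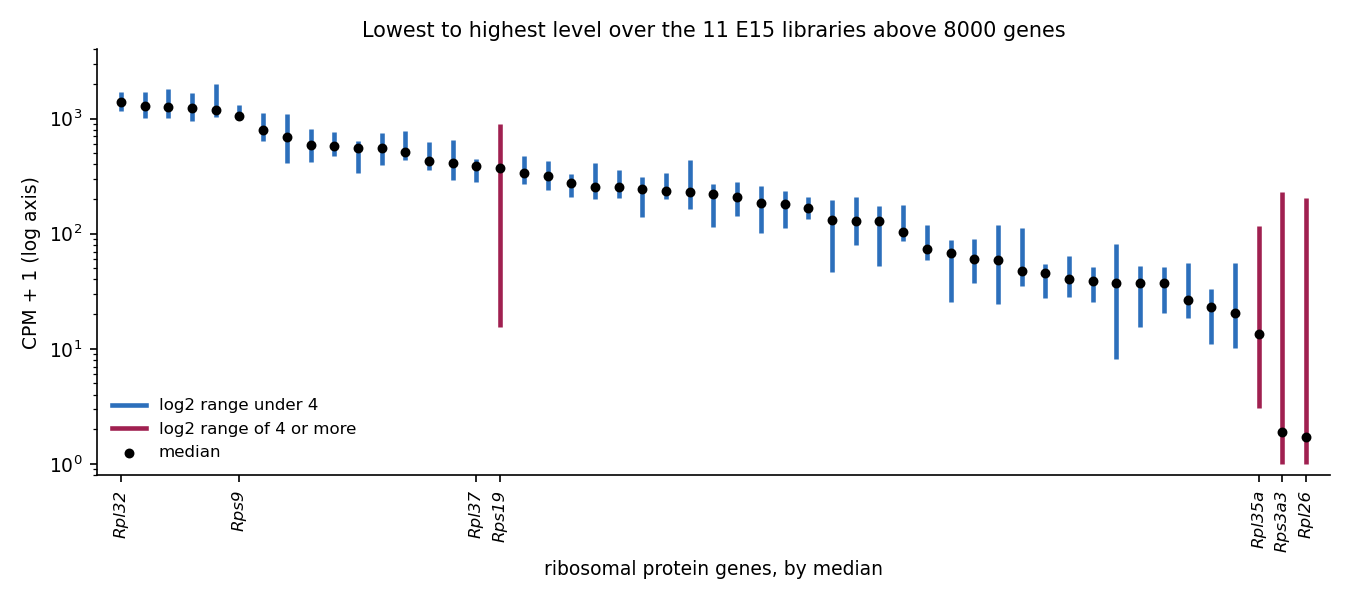
Lowest to highest level (lines) and median (points) of the 51 members with a mean of 20 CPM or more over the 11 E15 libraries with reads of more than 8000 genes, as CPM plus 1 on a log axis, ordered by median, with the genes described in the text named on the axis. Rps19, Rpl35a, Rps3a3 and Rpl26 span a log2 range of 4 or more, while the median range is 1.04.

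Other members past 2-fold between E15 and E12 cells were at low levels. Rpl15, a large subunit protein, was at 47.7 CPM in E15 cells (0 to 112 per cell, median 6.62) and at 6.68 CPM in E12 cells (0 to 83.2, median 0), and its log2 ratio of 2.67 turned to -2.68 without libraries above 7000 genes. Rpl31, at the exit of the peptide tunnel, was at 17.5 and 4.45 CPM, and Rps23, of the decoding centre, at 16.8 and 2.83 CPM. Rpl9 had 195 and 1 reads, a ratio of 25.7 (4.56 to 1021). Rpl19, Rpl7a and Rpl36a had log2 ratios of 1.76, 1.55 and 1.28 at 10.6 CPM or less in both groups. Rpl21 was lower in E15 cells, at 10.8 against 44.3 CPM, with a log2 ratio of -1.94 that was -0.97 without E12 replicate 9. Rps25, a small subunit protein used in internal initiation, was at 36.5 against 75.9 CPM (-1.03), and -0.79 without E12 replicate 9.

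Among the paralogs, Rps27l, which p53 induces, was at 731 CPM in transplanted, 596 in E15 and 1028 in E12 cells. Its log2 ratio of E15 to E12 cells was -0.79, and -0.39 without E12 replicate 5. Rpl22l1, a paralog of Rpl22, was at 30.9, 21.4 and 43.1 CPM, and Rpl22 itself at 261, 295 and 410 CPM. The log2 ratio of Rpl22 in E15 over E12 cells was -0.47, and 0.11 without E12 replicate 5. Rpl36al was at 84.3, 84.2 and 63.3 CPM, Rpl7l1 at 166, 159 and 145 CPM, and the copies Rps27rt and Rpl37rt at 122, 143 and 126 CPM and at 199.9, 168 and 161 CPM. The log2 ratios of these 6 paralogs were within 1 of 0 in all 3 comparisons. Nearest to 2-fold was Rpl22l1 in E15 over E12 cells at -0.98, which was -1.45 without E12 replicate 5 and -1.65 on mean CPM per cell. It was -0.74 without E12 replicate 18, and 1 of 59 alternatives turned its direction, to 0.43.

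The comparison of transplanted with E15 cells asks what differs in E15 progenitors placed in the younger brain. In both groups most of the summed reads come from many-gene libraries. The 66 members at 5 CPM or more had a median log2 ratio of 0.17, with quartiles of 0.01 and 0.41, against -0.08 for all genes, and 51 were higher in transplanted cells. The many-gene libraries left out, 18 members were higher and the median was -0.28, against -0.12 for all genes, so no direction of the set can be given; 3 were then higher (background 18.7%) and 4 lower (background 28%) by 2-fold or more. Rps19 alone was higher by 2-fold or more (background 4.71%), and Rps3a3 alone was lower (background 11.8%). Within 0.5 of 0 lay 78.8% of the members and 59% of all genes. At 200 CPM or more in both groups these shares were 92% of 25 members and 92.4% of 955 genes, so the narrow band was no narrower than that of other genes there.

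Other differences were smaller. Rpl6 was at 20.5 CPM in transplanted and 11.2 CPM in E15 cells (log2 ratio 0.82, -0.16 without transplanted replicate 19). Rps3a1 was at 205 against 137 CPM (0.58) and Rps25 at 54.2 against 36.5 CPM (0.56). Lower were Rpl35a at 21.9 against 32.8 CPM (-0.56), Rpl15 at 33.7 against 47.7 CPM (-0.49), Rps27rt (-0.22) and Rps24 at 191 against 219 CPM (-0.20). Rpl35a and Rpl15 reached 0.24 and 5.02 in other settings. Rpl12, a protein of the stalk base, was under the level of 5 CPM, with 14 against 141 reads. The medians of large subunit, small subunit, stalk and paralog genes were 0.15, 0.17, 0.18 and 0.15.

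Against E12 cells, transplanted cells had a median log2 ratio of 0.25 over 64 members, with quartiles of -0.08 and 0.59, and of -0.09 over all genes. Without the many-gene libraries these medians were 0.01 and -0.16. At 200 CPM or more in both groups 76.9% of 26 members and 60% of 843 genes lay within 0.5 of 0. Higher by 2-fold or more were 8 members (background 22.9%) and lower 2 (background 24.7%); without the many-gene libraries these were 9 (background 22.5%) and 4 (background 29.8%). Those at 20 CPM or more were Rps4l (5.13), Rpl15 (2.18, at 33.7 against 6.68 CPM), Rpl31 (2.17, at 23.6 against 4.45 CPM) and Rps19bp1 (1.19) among the higher, and Rpl21 (-1.82, at 11.9 against 44.3 CPM; -0.85 without E12 replicate 9) and Rpl35a (-1.41, at 21.9 against 59.9 CPM) among the lower. Rps3a1 (0.92), Rpsa (-0.84, at 41.1 against 74.5 CPM), which is also known as a laminin receptor, Rpl22 (-0.65) and Rps27l (-0.49) were nearer to 0. Without E12 replicate 5, Rpsa, Rpl22 and Rps27l were at -0.44, -0.07 and -0.10. Transplanted and E15 cells are each set against the same E12 cells, and transplanted cells against the same E15 cells, so the 3 comparisons are not independent.

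How many reads a member had went with how much of its 3′ end is its own. The kit reads the 3′ ends of transcripts, so levels were not divided by length. In the last 400 bases of the annotated transcripts a median of 59.3% of a member's 50-base words occurred in no other annotated gene. The 27 members under 50% had a median of 34.4 CPM over the 65 cells, and the other 40 a median of 287.5 CPM. Under 20 CPM were 10 of the 27 and 5 of the 40. The rank correlation of the unique share with the level was 0.45 over the 67 members, which are not independent of each other. Rpl36a had no unique word and was at 6.32 CPM in E15 cells, while Rps26 (31.9%) reached 749 CPM and Rpl12, with 100% unique words, had 3.76 CPM. How reads that match several places were counted is not given in the sources used here.

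**Figure D5:**
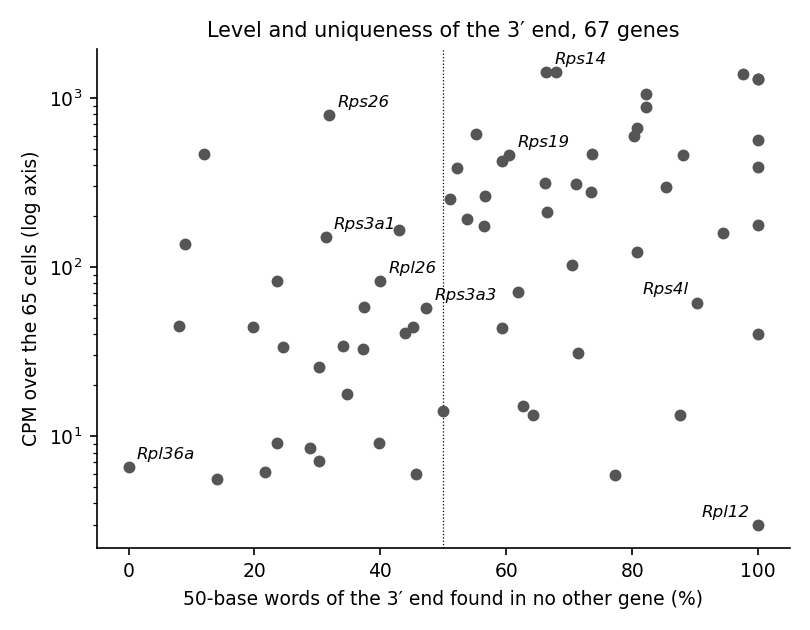
Level over the 65 cells, as CPM on a log axis, of each of the 67 genes against the percentage of 50-base words in its last 400 transcript bases that occur in no other annotated gene; the dotted line marks 50%. The 27 genes left of the line have a median of 34.4 CPM and the 40 on its right one of 287.5 CPM.

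Short pyrimidine runs of the TOP kind were found near many starts of the set. 3 start regions from RefSeq (GRCm38.p6), from 50 bases before to 30 after the annotated start, show a member with a double run (Rpl4, chr9:64173337-64173416, plus strand), one with a single run (Rps26, chr10:128626477-128626556, minus strand) and one with none (Rps3, chr7:99483680-99483759, minus strand), with the runs in capitals.
Rpl4: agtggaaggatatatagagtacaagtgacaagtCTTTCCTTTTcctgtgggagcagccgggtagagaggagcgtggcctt
Rps26: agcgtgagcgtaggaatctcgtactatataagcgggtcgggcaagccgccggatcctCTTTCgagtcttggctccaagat
Rps3: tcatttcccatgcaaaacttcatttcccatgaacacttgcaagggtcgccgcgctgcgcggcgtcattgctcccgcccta
CTTTC or CTTTT was searched within 50 bases on either side of the RefSeq start on the gene's strand, and starts were found for 52 of the 67 symbols. It occurred in 34 of 50 protein-coding ribosomal protein genes (68%), in 24.4% of 27025 genes and in 19.5% of the 7955 genes of the tables with a start. On the opposite strand the shares were 22%, 23.7% and 17.8%. A match of 5 letters is a description and not a site. All 3 genes shown had similar levels in the groups: Rps26 was at 901 CPM in transplanted, 749 in E15 and 837.5 in E12 cells, Rpl4 at 1376, 1270 and 1368 CPM, and Rps3 at 1479, 1359 and 1320 CPM.

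Other genes of ribosome production and translation were set beside the members, as lists. The 41 ribosome biogenesis genes, which process ribosomal RNA and assemble the subunits, had 35 lower in E15 than in E12 cells and a median log2 ratio of -0.64 (-0.43 without the many-gene libraries), with 12 lower (background 20.3%) and 2 higher (background 25.3%) by 2-fold or more. Gnl3, nucleostemin, was at 96.2 CPM in E15 and 280 CPM in E12 cells, Rrp9, of the U3 particle, at 40.9 and 119 CPM, Nop10, of pseudouridylation particles, at 302 and 470 CPM, and Ncl, nucleolin, at 702 and 618 CPM. Without the many-gene libraries Nop10 was 0.05 on the log2 scale, against -0.64 with them, and Ncl was -0.10, against 0.18. In transplanted against E12 cells 32 of the 41 were lower (median -0.54, -0.29 without), and against E15 cells 24 were higher (median 0.18, 0.28 without).

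The 74 mitochondrial ribosomal proteins had a median of 0.16 in E15 over E12 cells, and of 0.13 and 0.31 in transplanted cells over E15 and over E12 cells. The 37 initiation factors were at -0.20, 0.17 and -0.06, with 17 higher and 20 lower in E15 than in E12 cells. Eif4ebp1, the repressor of cap-dependent initiation that mTORC1 switches off, was at 76.9 CPM in E15 and 221 CPM in E12 cells. Higher in E15 cells were Eif4g2 at 847 against 583 CPM and Eif1 at 783 against 563 CPM. Their log2 ratios were 0.54 and 0.47, and 0.20 and -0.07 without the many-gene libraries. The elongation factor list, 8 of 9 genes at 5 CPM or more, was at -0.25, 0.07 and -0.03, with 3 higher and 5 lower in E15 than in E12 cells. It also holds Eef2k and Eef1e1, which are named after these factors. They had its largest ratios in E15 over E12 cells, -0.81 and -0.71. Eef2, which moves the ribosome along, was at 447 CPM in E15 against 334 CPM in E12 cells, and Eef1e1 at 83.0 against 137 CPM. The 13 further TOP messenger RNAs and ribosome-associated proteins were at 0.07, 0.22 and 0.21, with 7 higher and 6 lower in E15 than in E12 cells. The scaffold Rack1 was at 1013 CPM in E15 against 905 CPM in E12 cells, and Nap1l1 at 189 against 396 CPM. The 13 RNA polymerase I genes were at 0.09 (11 measured), 0.11 and 0.54, with 6 higher and 5 lower in E15 than in E12 cells. Ubtf, its upstream binding factor, was at 152 CPM in E15 against 44.5 CPM in E12 cells. Lower in E15 cells were Taf1d at 126 against 262 CPM and Polr1e at 25.7 against 102 CPM. The 22 genes of mTORC1 and TOP control were at -0.03, -0.09 and -0.29 (21 measured), with 9 higher and 12 lower in E15 than in E12 cells. Sesn2, an inhibitor of mTORC1, was at 5.60 CPM in E15 against 57.9 CPM in E12 cells, and Larp1b at 6.86 against 0 CPM. The 12 ribosome quality control genes were at -0.45, 0.15 and -0.44, and Zfp598, the sensor of collided ribosomes, was at 7.28 CPM in E15 against 88.6 CPM in E12 cells. Without the many-gene libraries the sign turned for the elongation factors (0.44 in E15 over E12, -0.19 in transplanted over E15 cells), for the mitochondrial ribosomal proteins in transplanted over E15 cells (-0.04) and for the mTORC1 list in E15 over E12 (0.22) and transplanted over E15 cells (0.02).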

How the data were processed

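Patch-seq libraries of 65 single cells were made with a 3′ SMART-Seq v4 kit and Nextera XT, per the labels' protocols; the submitters' processing notes name STAR, HTSeq and the build mm10, without versions. The deposited values are log10 values. Per the values themselves they are log10 of 1 plus scaled counts, centred per gene, with 2 further directions over the 65 cells removed. The design had assumed counts. Read counts were therefore recovered: for 9935 genes from the cells at 0 and for 472 by a search for whole numbers. All 356667 values above 0 were within 0.01 of a whole number. Ambiguity was counted only in the search for whole numbers, with 0 genes ambiguous. No gene was read in fewer than 6 cells. On simulated data for E15 over E12, 100% of 2567 genes came back exactly, and genes raised or lowered 4 times gave median log2 ratios of 2.03 and -1.78.

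Groups came from the labels, which also name 8 pools without defining them; replicate numbers follow accession order. Summed reads per group were turned into CPM, with 1 CPM added before log2, members needed 5 CPM in either group, and called meant 2-fold or more, with no test. Named were the 5 members of highest CPM, the 5 of largest ratio in each direction at 20 CPM or more in the higher group, all paralogs, Rps19bp1, and of each list the 2 highest and the 2 of largest ratio; Rpl26, low members past 2-fold and the genes of widest range were named after their values were seen. Of the lists, part of the named genes are printed. A pair of members that the rule names is not reported here. The members, lists and alternatives were chosen with earlier results of these data known, and the limits of 8000 and 7000 genes come from them. Leaving out E15 replicates 4, 5 and 7, leaving out the largest Rps4l library and the alternatives for the share per cell were chosen after seeing the data. Other alternatives changed the weight of cells, scaling, filter, pseudocount and libraries, thinned cells to 20000 reads, or left out each cell or, for the medians, each pool. Sequences and coordinates are from GENCODE vM21 (GRCm38) and RefSeq (GRCm38.p6). Scripts ran on pandas 2.3.3, SciPy 1.17.1 and NumPy 2.4.6 with Numba 0.67.0, and figures on Matplotlib 3.10.9, under Python 3.11.15.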

Additional observations from a re-analysis of the deposited data

How the results depend on the processing

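The medians of the set moved around 0. For E15 over E12 (0.06) the median was -0.06 on mean CPM per cell, 0.12 on the median cell, 0.10 on thinned reads and with median-of-ratios factors, 0.16 with TMM factors, 0.25 without libraries above 8000 genes, 0.13 without E15 replicates 4, 5 and 7, 0.19 averaged over ratios within pools and -0.01 on deposited values. For transplanted over E15 (0.17) these were 0.11, -0.08, 0.10 (thinned), 0.23 (median-of-ratios), 0.21, -0.28, 0.10, -0.09 and 0.02, with -0.03 without libraries above 7000 genes, 0.17 without those under 50000 reads, 0.21 with a filter of 20 CPM and 0.16 with a pseudocount of 5 CPM. For transplanted over E12 (0.25) they were 0.03, 0.00, 0.14, 0.35, 0.38, 0.01, 0.21 (pools) and -0.02, with 0.02 without libraries above 7000 genes and 0.24 without a filter. On the median cell the median of all genes was itself 1.92, -0.51 and 0.00. Leaving out single cells or pools gave -0.003 to 0.12, -0.05 to 0.35 and -0.03 to 0.36.

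Of the 9 members higher and 3 lower by 2-fold in E15 over E12, 18 and 1 were counted on the median cell, 15 and 5 on thinned reads, 1 and 1 on deposited values, and 6 lower without libraries above 7000 genes; leaving out single cells gave 8 to 11 and 2 to 5. For transplanted over E15 (1 and 1) these were 4 and 3 on mean CPM per cell, 12 lower on the median cell, 5 and 6 thinned, 3 and 4 without libraries above 8000 genes, 8 and 5 with a limit of 7000 genes, and 2 higher on deposited values, with 1 to 3 and 1 to 1 leaving out single cells. For transplanted over E12 (8 and 2), 1 was lower on mean CPM and on the median cell, 4 without libraries above 8000 or 7000 genes, and 0 and 0 passed on deposited values, with 7 to 10 and 1 to 3 leaving out single cells.

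Among ratios past 2-fold, directions turned for Rpl15 (E15 over E12, -2.68 without libraries above 7000 genes), and on the median cell for Rpl21 (2.27, and 0.00 in transplanted over E12), Rps25 (0.79, and 0.03 on deposited values) and Rpl35a (0.66 in transplanted over E12). Smaller ratios turned too, among them in transplanted over E12 Rpsa (up to 0.27) and Rps27l (up to 0.33). The cause was not tested. Of 837 alternatives for the 15 named ratios past 2-fold, 831 kept their direction and 796 stayed past 2-fold. Most of these alternatives left out a single cell, which can seldom turn a summed ratio of that size. The turns of ratios past 2-fold all came from the other settings, so the total says little about those. Shallow libraries limit low members most. No paired analysis was possible because replicate numbers only follow accession order; the pools, which groups share, gave the ratios within pools above.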
